A study of Mus musculus with 24 samples.

Results

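White adipogenesis in culture was followed here from day 4 to day 8 in cells that received no compound of interest. The 6 libraries were 3 of day 4 and 3 of day 8 from WAT control cells, chosen by their sample labels from the 24 libraries of the series. The cells were stromal vascular cells, the mixture of precursors, vessel cells and immune cells that stays behind when floating fat cells are removed, from inguinal white adipose tissue (WAT) of 6-week-old C57BL/6 mice (female in the study's methods). All 6 libraries are labelled control, which in this series stands for DMSO in the medium in place of the tea catechin EGCG. Day 4 ended the induction medium, with insulin, dexamethasone (a glucocorticoid) and 3-isobutyl-1-methylxanthine (an inhibitor of the enzymes that break down cyclic AMP). Day 8 ended the differentiation medium, with insulin and triiodothyronine (T3, the active thyroid hormone). Every change below is therefore a change of day and of medium together, and the effects of time and of medium cannot be told apart. How many mice or isolations lay behind the replicates is not given in the sources used here, so p-values measure only the spread between these samples.

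Adipogenesis is the passage of a fibroblast-like precursor to a fat-storing adipocyte. The induction hormones start a relay of transcription factors in which C/EBP-beta and C/EBP-delta lead to PPAR-gamma and C/EBP-alpha, which then hold the adipocyte programme on together. Maturation after this relay brings the enzymes that make fatty acids from glucose, the coat proteins of the lipid droplet and the secreted adipokines. White adipocytes store triglyceride in a single large droplet, whereas brown adipocytes burn it through the uncoupling protein UCP1.

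Values are FPKM, the reads on a gene divided by its length and by the library's reads on all genes. Replicates 1 and 2 were sequenced to 40134471 to 51319195 reads assigned to genes and replicate 3 to between 16392420 and 16573516. Replicate 3 of each day was deposited in a separately made table, and 363 of the 14095 tested genes had levels at least 4-fold apart between the tables. Tests therefore rest on replicates 1 and 2, with the change within replicate 3 shown beside them. Across genes, log2 values of replicates 1 and 2 differed with an SD of 0.231 on day 8 and of 0.119 to 0.148 in the other 7 groups of the series. The pooled spread behind the standard errors and p-values therefore lies below that of day 8 across genes, so both can be too small. Of the marker genes, 8 for adipocytes summed to 2032 to 2682 FPKM on day 4 and 4833 to 5626 on day 8. Fabp4 gave the most to these sums. The 9 markers of T, B or NK lymphocytes were under 1 FPKM in all 6 libraries. Macrophage markers were present and summed to 84.0 to 92.6 FPKM on day 4 and 143 to 179 on day 8, with Lyz2 giving the most. In bulk RNA, fewer cells of a type and less RNA per cell cannot be told apart.

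The comparison asked which genes changed as differentiating cells became mature. Between day 4 and day 8, 27.7% of the tested genes were called higher and 33.2% lower by limma at an adjusted p under 0.05. These shares are the background for each gene group below. Gene groups differed widely in how their members were spread over the calls. All 44 tested genes of DNA replication and mitosis were called lower, and 37 of 38 interferon-stimulated genes and 18 of 20 complement genes were called higher. Among 14095 genes the median log2 change was -0.03. In replicate 3, 3709 of the 3907 genes called higher and 4442 of the 4684 called lower moved in the called direction.

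**Figure D1:**
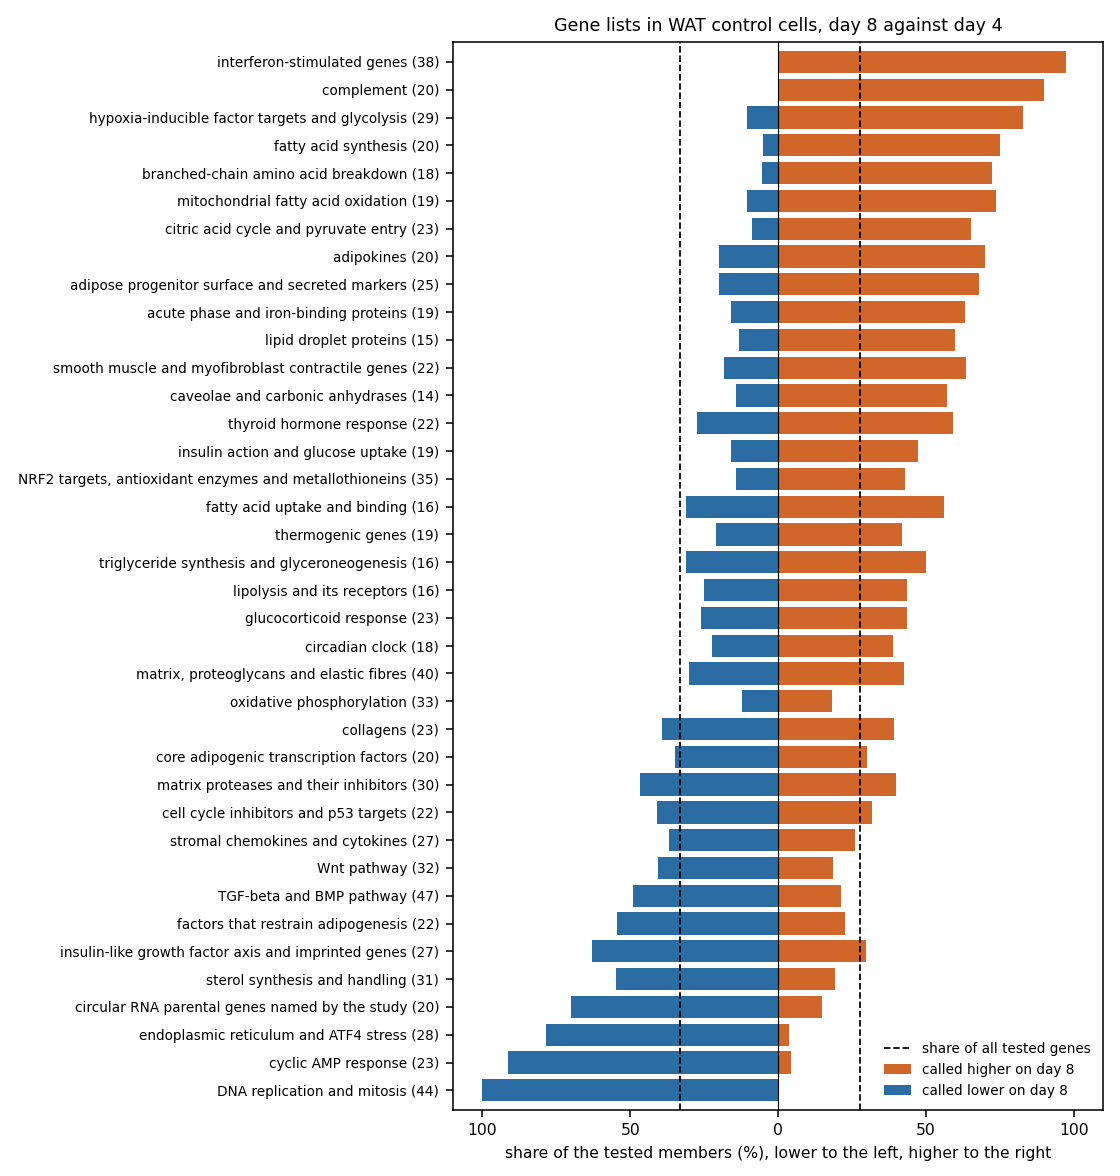
Share of the tested members of 38 gene lists called higher (right, orange) or lower (left, blue) on day 8 than on day 4 in WAT control cells, in percent, with the number of tested members in brackets. Dashed lines mark the share among all 14095 tested genes, 27.7% to the right and 33.2% to the left. Interferon-stimulated and complement genes reach farthest to the right, and DNA replication and mitosis, with 44 of 44 called lower, farthest to the left.

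Among genes changed at least 2-fold in each of the 3 replicates, 484 were higher and 229 lower on day 8, and 12 genes from either end of the range of log2 changes were taken as named genes. Their coordinates are in mouse build NCBIM37 (mm9). Orm1 (ENSMUSG00000039196.2, chromosome 4, 63005594 to 63009197), which encodes the plasma protein alpha-1-acid glycoprotein, led the rise. It had 0.453, 0.541 and 0.551 FPKM on day 4 and 70.3, 59.1 and 40.6 on day 8. The days were far apart in each replicate, with a log2(FPKM + 1) change of 5.45 ± 0.0935 (SE) and an adjusted p of 9.07e-12. With the spread of the 4 WAT control libraries alone the adjusted p by limma was 0.000314. Orm1 has near-identical copies, Orm2 and Orm3, which were also called higher, and reads could be split among them.

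Ly6c1 (ENSMUSG00000079018.3, chromosome 15, 74875447 to 74879260), a surface protein of the Ly6 family found on endothelial and some stromal cells, had 9.26, 9.19 and 11.6 FPKM on day 4 and 286, 399 and 347 on day 8 (log2 change 5.05 ± 0.17, adjusted p 1.24e-09). C4b (ENSMUSG00000073418.4, chromosome 17, 34865325 to 34880827), complement component 4, had 10.6, 10.4 and 11.6 FPKM on day 4 and 303, 360.3 and 351 on day 8 (log2 change 4.85 ± 0.0789). Both genes have close relatives in the genome. Pnpla3 (ENSMUSG00000041653.4, chromosome 15, 83998246 to 84019942), a lipid droplet protein whose gene is switched on by feeding and insulin, went from 1.04, 0.92 and 1.18 FPKM on day 4 to 34.9, 42.1 and 40.4 on day 8, 39.2-fold in replicates 1 and 2. Lep (ENSMUSG00000059201.6, chromosome 6, 29010220 to 29023877), the gene of the satiety hormone leptin, stood at 0.502, 0.444 and 0.449 FPKM on day 4 and at 21.3, 21.8 and 17.8 on day 8 (45.6-fold, adjusted p 9.07e-12). Leptin is best known from white adipocytes. In the brown fat control cultures of this series Lep rose as well, by a log2 change of 5.31 against 3.94 in these cells. Sncg (ENSMUSG00000023064.4, chromosome 14, 35183460 to 35187975), gamma-synuclein, an adipocyte-rich relative of the synucleins of neurons, had 1.3, 1.56 and 1.15 FPKM on day 4 and 34.5, 37.4 and 37.2 on day 8.

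Wisp2 (ENSMUSG00000027656.7, chromosome 2, 163646597 to 163658882), also called Ccn5, a secreted protein of adipose precursors, had 2.74, 2.78 and 2.48 FPKM on day 4 and 107, 80.3 and 84.9 on day 8 (log2 change 4.64 ± 0.14). Prelp (ENSMUSG00000041577.5, chromosome 1, 135806881 to 135817991), a leucine-rich proteoglycan that anchors basement membranes, had 3.33, 3.06 and 3.34 FPKM on day 4 and 70.5, 65.6 and 81.1 on day 8. Its exons overlap those of Gm15851, and whether counting used the strand is not given in the sources used here. Itgbl1 (ENSMUSG00000032925.9, chromosome 14, 124059193 to 124374840), a secreted protein with integrin-like repeats, had 2.69, 2.2 and 2.03 FPKM on day 4 and 46.4, 65.2 and 64.3 on day 8. Libraries within a day lay close together for all 3 of these genes relative to the distance between days.

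The remaining named genes that rose were Oas2, Mup17 and Reg1. Oas2 (ENSMUSG00000032690.9, chromosome 5, 121180342 to 121199862), an interferon-induced enzyme that senses double-stranded RNA, had 0.654, 1.05 and 0.508 FPKM on day 4 and 30.5, 30.4 and 25.6 on day 8 (adjusted p 9.85e-10). Mup17 (ENSMUSG00000089681.2, chromosome 4, 61252961 to 61256903), of the major urinary proteins that carry small lipophilic molecules, had 3.66, 2.54 and 7.3 FPKM on day 4 and 59, 79.9 and 73.2 on day 8. Its family is large and nearly identical in sequence, so the value may hold reads of its relatives. Reg1 (ENSMUSG00000059654.4, chromosome 6, 78375974 to 78378661), a secreted lectin-like protein, had 0.958, 1.75 and 1.26 FPKM on day 4 and 46.8, 22.9 and 30.6 on day 8, with the libraries of day 8 more spread than for most of the others (log2 change 3.86 ± 0.25).

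**Figure D2:**
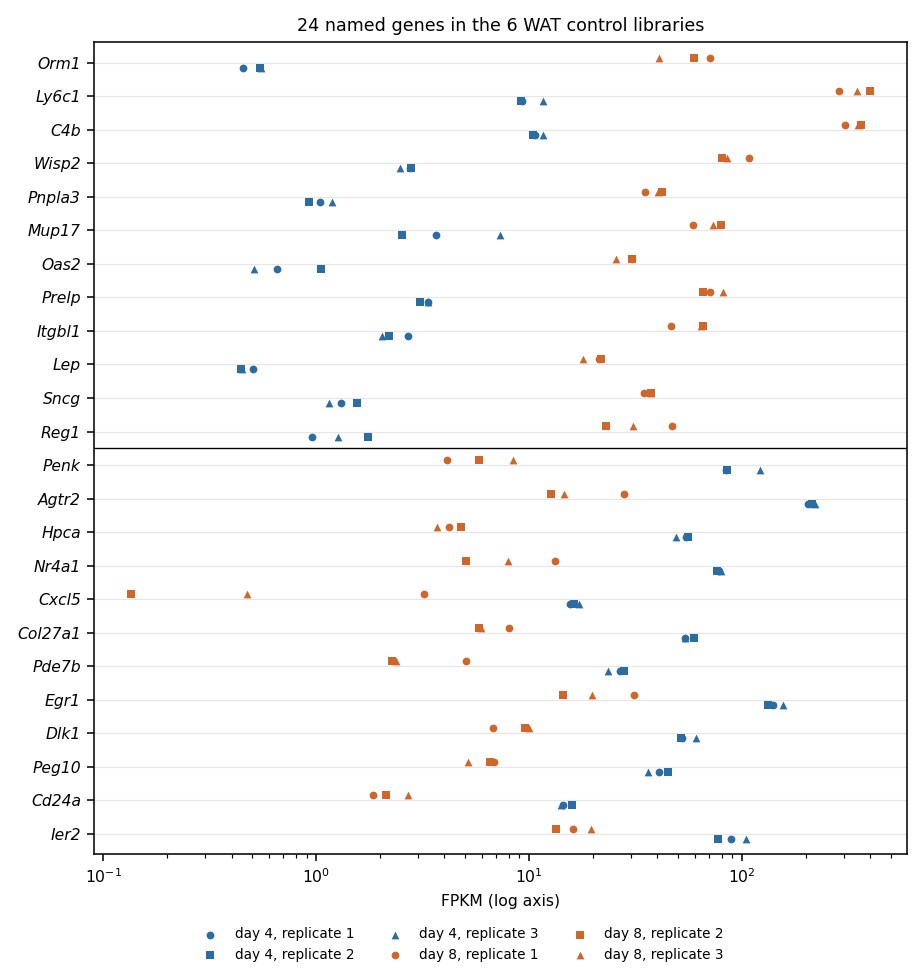
FPKM (log axis) of the 24 named genes in the 6 WAT control libraries, day 4 in blue and day 8 in orange, with circles, squares and triangles for replicates 1, 2 and 3. The 12 genes above the line rose and the 12 below it fell, and Cxcl5 has the widest day 8 values, from 0.136 to 3.21 FPKM.

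Penk (ENSMUSG00000045573.9, chromosome 4, 4060678 to 4065966), which encodes the opioid precursor proenkephalin, fell most. It had 83.8, 84.9 and 121 FPKM on day 4 and 4.11, 5.79 and 8.37 on day 8 (log2 change -3.86 ± 0.132, adjusted p 1.33e-09). Its exons overlap those of A830012C17Rik. Agtr2 (ENSMUSG00000068122.3, chromosome X, 21061670 to 21066290), the type 2 receptor of angiotensin, had 204, 212 and 219.6 FPKM on day 4 and 27.8, 12.7 and 14.6 on day 8. Hpca (ENSMUSG00000028785.6, chromosome 4, 128788814 to 128799280), the calcium sensor hippocalcin, had 54.6, 55.7 and 49 FPKM on day 4 and 4.2, 4.8 and 3.7 on day 8. Exons of Tmem54 overlap those of Hpca.

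Several of the genes that fell are quick responders to cyclic AMP or growth factors. Nr4a1 (ENSMUSG00000023034.6, chromosome 15, 101097277 to 101105223), an orphan nuclear receptor and immediate early gene, had 77.5, 76.3 and 79.9 FPKM on day 4 and 13.2, 5.03 and 7.95 on day 8 (log2 change -3.07 ± 0.274). Egr1 (ENSMUSG00000038418.6, chromosome 18, 35020861 to 35024638), a zinc finger factor of the same kind, had 139, 132 and 155 FPKM on day 4 and 31.2, 14.4 and 19.7 on day 8. Ier2 (ENSMUSG00000053560.4, chromosome 8, 87185230 to 87186751), another immediate early gene, had 88.4, 77.1 and 104 FPKM on day 4 and 16, 13.3 and 19.4 on day 8. Day 8 replicate 1 held the highest day 8 value of Nr4a1 and Egr1 but not of Ier2. Pde7b (ENSMUSG00000019990.8, chromosome 10, 20117810 to 20444884), a phosphodiesterase that breaks down cyclic AMP, had 26.6, 27.9 and 23.5 FPKM on day 4 and 5.07, 2.27 and 2.36 on day 8 (adjusted p 6.68e-07). Cxcl5 (ENSMUSG00000029371.5, chromosome 5, 91188325 to 91190651), a chemokine that draws neutrophils, had 15.5, 16.2 and 17.1 FPKM on day 4 and 3.21, 0.136 and 0.474 on day 8, and its day 8 libraries differed the most among the named genes (log2 change -2.95 ± 0.425).

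Precursor and imprinted genes and a collagen gene made up the rest of the named genes that fell. Dlk1 (ENSMUSG00000040856.11, chromosome 12, 110691033 to 110701546), or preadipocyte factor 1, an imprinted gene that holds precursors back from differentiation, had 52.2, 51.6 and 60.9 FPKM on day 4 and 6.76, 9.6 and 9.97 on day 8 (log2 change -2.54 ± 0.195). Peg10 (ENSMUSG00000092035.1, chromosome 6, 4697306 to 4710514), an imprinted gene derived from a retrotransposon, had 40.8, 45 and 36.1 FPKM on day 4 and 6.86, 6.55 and 5.17 on day 8. Cd24a (ENSMUSG00000047139.8, chromosome 10, 43298975 to 43304068), a surface protein of early adipose precursors, had 14.3, 15.9 and 14.1 FPKM on day 4 and 1.85, 2.12 and 2.7 on day 8. Col27a1 (ENSMUSG00000045672.7, chromosome 4, 62875038 to 62996025), a fibrillar collagen chain of cartilage, went from 54, 59.1 and 53.7 FPKM to 8.03, 5.79 and 5.96.

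A few genes were at or near 0 reads on 1 of the days. At most 3 reads in each library of day 4 and at least 1 FPKM in each of day 8 were found for 4 genes. Ccl12, a monocyte chemokine, had 1, 0 and 0 reads on day 4 and 7.9, 5.61 and 7.19 FPKM on day 8, at least 51.9-fold higher against a floor of 3 reads per library in replicates 1 and 2. The others were C1qtnf2, an adiponectin-like secreted protein (at least 26.8-fold), Vnn3 (at least 32.9-fold) and Serpinb6c (at least 24.3-fold). Such floors cover counting error only, because PCR copies of a molecule cannot be recognised. The opposite pattern was seen for 3 genes. Csn2, the milk protein beta-casein, had 3.44, 2.24 and 4.24 FPKM on day 4 and 0, 0 and 2 reads on day 8 (at least 42.6-fold lower). Cited1, a transcriptional co-regulator, was at least 25.3-fold lower and Grp, gastrin-releasing peptide, at least 13.6-fold lower. Markers of epithelial cells were read in these cultures and summed to 20.3 to 40.9 FPKM on day 4 and 12 to 22.4 on day 8, with 4 of 7 called lower and 1, Esr1, called higher. Their part in the Csn2 result was not tested.

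Fatty acid synthesis rose broadly. Of 20 tested genes of the pathway, 15 were called higher and 1 lower, with a median log2 change of 1.19. Me1, the malic enzyme that supplies NADPH, had 24.8, 22 and 30.1 FPKM on day 4 and 305, 346 and 355 on day 8 (log2 change 3.74 ± 0.09, adjusted p 1.14e-10). Scd1, the desaturase that makes oleate, had 555, 504 and 547 FPKM on day 4 and 4254, 4425 and 3585 on day 8. Its mean was 8.2-fold higher on day 8. Fasn, fatty acid synthase, had 105, 99 and 117 FPKM on day 4 and 339, 638 and 519 on day 8. Acly, which makes cytosolic acetyl-CoA, had 73.1, 71.3 and 77.8 FPKM on day 4 and 227, 481 and 392 on day 8. For these last 2 genes day 8 replicate 1 was the lowest of the day 8 libraries and still above every library of day 4. Thrsp, a regulator of lipogenesis that responds to thyroid hormone, had 51.1, 38.2 and 61.9 FPKM on day 4 and 380.4, 915 and 805 on day 8, again lowest in replicate 1. Elovl3, an elongase known from brown fat, was the member called lower, with 3.96, 3.14 and 4.02 FPKM on day 4 and 2.05, 1.5 and 1.73 on day 8. No member was called lower with a pseudocount of 0.1, without day 4 replicate 1 or without day 8 replicate 2, and 2 were without day 8 replicate 1. Insig1, which holds back the activation of sterol regulatory factors, had 67.7, 61.7 and 65.8 FPKM on day 4 and 74.1, 53.9 and 46 on day 8 and did not pass the test (adjusted p 0.816).

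The lipid droplet proteins followed a mixed course, with 9 of 15 called higher and 2 lower. Cidec, which fuses droplets into larger ones, had 21.9, 18.8 and 26.9 FPKM on day 4 and 112, 119.9 and 111 on day 8 (log2 change 2.45 ± 0.106). Plin4, a droplet coat protein, had 14.3, 13.4 and 11.7 FPKM on day 4 and 58.4, 70.9 and 50.9 on day 8. G0s2, an inhibitor of the main triglyceride lipase, had 60.5, 52.1 and 72.8 FPKM on day 4 and 133, 156 and 153 on day 8. Plin1, the chief droplet coat protein, moved by less, with 116, 105 and 116 FPKM on day 4 and 147, 135 and 119 on day 8 (log2 change 0.35, adjusted p 0.0474). Mest, an imprinted gene tied to fat cell enlargement, fell from 28, 25.2 and 27.8 FPKM to 4.58, 4.47 and 5.08.

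Of the genes that esterify fatty acids or supply glycerol, 8 of 16 were called higher and 5 lower. Agpat2 had 122, 97.8 and 141 FPKM on day 4 and 233, 276 and 265 on day 8. Gpd1, which makes glycerol 3-phosphate, had 47.1, 41.8 and 74.2 FPKM on day 4 and 102, 116 and 161 on day 8, whereas Agpat9, now named Gpat3, fell from 19, 16.9 and 21.8 to 9.51, 6.99 and 7.0 FPKM. Lipolysis genes and their receptors gave 7 higher and 4 lower of 16. Adrb3, the beta-3 adrenergic receptor of mature adipocytes, had 6.25, 4.86 and 6.16 FPKM on day 4 and 20.1, 15.8 and 16.4 on day 8. Adora1, an adenosine receptor that restrains lipolysis, had 0.347, 0.181 and 0.433 FPKM on day 4 and 6.04, 6.18 and 6.39 on day 8. Lipe, hormone-sensitive lipase, had 46.5, 41.5 and 66 FPKM on day 4 and 46.4, 49.4 and 65.1 on day 8, overlapping values that did not pass the test (adjusted p 0.318).

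Uptake and binding of fatty acids gave 9 higher and 5 lower of 16 genes. Fabp4, the fatty acid binding protein of adipocytes, had 1909, 1669 and 2214 FPKM on day 4 and 3731, 4312 and 3806 on day 8. Cd36, a fatty acid transporter, had 72.4, 62.2 and 70.7 FPKM on day 4 and 134, 157 and 139.9 on day 8. Lpl, the lipase that frees fatty acids from circulating triglyceride, was called lower, with 1636, 1574 and 1551 FPKM on day 4 and 1234, 1199 and 1206 on day 8 (log2 change -0.40 ± 0.079, adjusted p 0.000941). In insulin action and glucose uptake, 9 of 19 were called higher and 3 lower. Slc2a4, the insulin-regulated glucose transporter GLUT4, had 10.9, 8.54 and 13 FPKM on day 4 and 39.3, 57.7 and 49.6 on day 8 (log2 change 2.19 ± 0.17). Pygl, which breaks down glycogen, had 7.0, 6.13 and 7.2 FPKM on day 4 and 57.6, 69.3 and 63.9 on day 8. The adaptor Irs2 fell from 18.6, 20.9 and 18 to 6.48, 6.25 and 6.1 FPKM while Irs3 rose from 1.68, 1.33 and 1.85 to 6.67, 5.94 and 5.81. Insr, the insulin receptor, had 12, 13.8 and 10.9 FPKM on day 4 and 13.2, 13.1 and 10.9 on day 8, with overlapping groups.

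Genes of oxidative metabolism had small median changes. The citric acid cycle and pyruvate entry had 15 of 23 genes called higher and 2 lower (median log2 change 0.26). These counts were 11 and 1 with the spread of the 4 WAT control libraries alone. Pcx, pyruvate carboxylase, changed most of these, from 92.8, 83.2 and 107 FPKM to 227, 304 and 278. Breakdown of branched-chain amino acids had 13 of 18 higher and 1 lower (median 0.43), and 10 higher and 2 lower without day 8 replicate 2 (median 0.27). Acadsb, an enzyme of isoleucine breakdown, had 22.1, 21.9 and 20.9 FPKM on day 4 and 47.4, 48.9 and 46.5 on day 8. Mitochondrial fatty acid oxidation had 14 of 19 higher and 2 lower, and 9 higher both with the spread taken from the 4 WAT control libraries alone and without day 4 replicate 2. Its median log2 change of 0.35 was 0.20 without day 8 replicate 2. Cpt2, the inner carnitine transferase, had 19.7, 18.4 and 22.9 FPKM on day 4 and 32.1, 33.6 and 35.2 on day 8.

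Of 33 oxidative phosphorylation subunits, which make up the respiratory chain and ATP synthase, 6 were called higher and 4 lower, beside 27.7% and 33.2% of all genes. The count rested on single libraries: 14 were higher without day 8 replicate 1, 3 without day 4 replicate 2 and 3 without day 8 replicate 2, where the median log2 change turned from 0.07 to -0.05. Ndufa4, a subunit linked to cytochrome oxidase, fell from 226, 203 and 241 to 116, 153 and 143 FPKM. Thermogenic genes gave 8 higher and 4 lower of 19, and 5 higher without day 4 replicate 2. Ucp1 was near the floor on day 4, with 0.178, 0.0567 and 0.0371 FPKM, and had no read on day 8. Cox7a1, a cytochrome oxidase subunit of muscle and brown fat, had 3.0, 2.18 and 2.01 FPKM on day 4 and 22.5, 19.7 and 17.6 on day 8. Ckb, brain-type creatine kinase, had 9.99, 10.8 and 13.1 FPKM on day 4 and 33.1, 28.3 and 31.1 on day 8. Ppargc1a, a coactivator of mitochondrial genes, fell from 2.94, 2.36 and 2.92 to 0.582, 0.983 and 0.737 FPKM.

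Secreted adipokines were called higher for 14 of 20 genes and lower for 4. With the spread of the 4 WAT control libraries alone, 10 were called higher and 4 lower. Cfd, the complement protease adipsin, had 43.9, 35.9 and 60.7 FPKM on day 4 and 508, 676 and 648 on day 8 (log2 change 3.85 ± 0.13). Rarres2, the chemoattractant chemerin, had 17.1, 18.9 and 32.7 FPKM on day 4 and 233, 209.5 and 285 on day 8. Retn, resistin, had 19.8, 17.6 and 34.4 FPKM on day 4 and 181, 257 and 239 on day 8. Replicate 3 was highest on day 4 for all 3 of these genes, and no day 4 value reached any of day 8. Adipoq, adiponectin, was already at 132, 110.2 and 143 FPKM on day 4 and at 214, 246 and 195 on day 8. Fgf21, a hormone of the fasting response, was called lower, with 7.31, 5.74 and 5.18 FPKM on day 4 and 2.62, 0.884 and 1.3 on day 8. So was Sfrp5, a secreted Wnt binder, with 1.34, 2.8 and 3.53 FPKM on day 4 and 0.423, 0.302 and 0.286 on day 8. Acute phase and iron-binding proteins had 12 of 19 higher and 3 lower. Hp, haptoglobin, had 302, 291 and 402 FPKM on day 4 and 1918, 2542 and 2543 on day 8. Serpina3n, a protease inhibitor, had 356, 370.5 and 427 FPKM on day 4 and 1201, 1740.0 and 1738 on day 8, whereas Saa3, a serum amyloid, fell from 1311, 1344 and 1429 to 728, 783 and 637 FPKM.

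The core adipogenic transcription factors were close to the background, with 6 of 20 called higher and 7 lower and a median log2 change of 0.00. Pparg had 57, 50.8 and 54.9 FPKM on day 4 and 54.2, 66.2 and 54 on day 8. Cebpa had 142, 124 and 167 FPKM on day 4 and 116, 137 and 141 on day 8. In both genes the days overlapped and the tests did not pass (adjusted p 0.231 and 0.531). Mlxipl, the glucose-sensing factor ChREBP, rose from 12.4, 11.8 and 12.5 to 20.5, 36.9 and 27.5 FPKM, and Zfp467, a zinc finger factor that favours fat over bone, from 0.668, 0.702 and 0.691 to 3.11, 3.5 and 3.48. Klf5, an early factor of the relay, fell from 7.55, 8.28 and 7.23 to 3.66, 3.87 and 3.68. Factors that restrain adipogenesis gave 5 higher and 12 lower of 22. Besides Egr1 and Dlk1, Snai2 had 25.5, 23.6 and 24.2 FPKM on day 4 and 14.7, 9.96 and 8.56 on day 8. Twist2 had 34.2, 33.6 and 38.4 FPKM on day 4 and 16.4, 17.6 and 20.8 on day 8. Klf2, which represses the PPAR-gamma gene, went the other way, with 1.36, 1.03 and 1.39 FPKM on day 4 and 5.37, 5.29 and 5.72 on day 8. Id3, which binds and blocks other helix-loop-helix factors, rose too, with 29.2, 29.4 and 34.4 FPKM on day 4 and 69.2, 70.8 and 75.5 on day 8.

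Genes of DNA replication and mitosis fell without exception. Each of the 44 tested members was called lower, 44 of 44 were lower in replicate 3, and the median log2 change was -1.42. Top2a, the topoisomerase that untangles chromosomes, had 19.8, 20.2 and 19.3 FPKM on day 4 and 3.32, 3.27 and 3.05 on day 8 (log2 change -2.29 ± 0.0785, adjusted p 1.33e-09). Cdc20, which starts chromosome separation, had 12.8, 11.6 and 12 FPKM on day 4 and 2.35, 2.04 and 3.6 on day 8. Mki67, the proliferation marker Ki-67, had 8.33, 9.06 and 7.8 FPKM on day 4 and 1.72, 1.59 and 1.52 on day 8. Mcm5, of the helicase that opens replication origins, had 11.1, 9.05 and 11.5 FPKM on day 4 and 1.57, 2.05 and 1.9 on day 8. Pcna, the clamp of the replication polymerases, fell less in log terms, with 81.5, 78.8 and 85.2 FPKM on day 4 and 29, 30.5 and 29.9 on day 8 (log2 change -1.40). E2f1, the factor that turns many of these genes on, changed least, with 9.75, 10.7 and 10.7 FPKM on day 4 and 8.15, 7.56 and 7.16 on day 8 (log2 change -0.34 ± 0.065).

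Many promoters of mitotic genes carry the letters TTTGAA, the core of the cell cycle homology region through which the DREAM complex represses them in resting cells. RefSeq promoters (build GRCm38.p6, from 250 bases before the start to 50 after it) matched 38 of the 44 genes. TTTGAA stood on either strand in 47.4% of them and in 20.2% of the 27025 genes with a RefSeq promoter. CCAAT stood in 71.1% against 41.1%, and GGCGGGA, an E2F core, in 34.2% against 12.7%. A gene was counted if any of its RefSeq promoters held the letters, and the comparison set was not limited to tested genes. A match is a description of the letters and not a site. Stretches of 80 bases are shown 5′ to 3′ on the gene's strand for the 4 members with the lowest change that hold TTTGAA, in capitals (or its reverse, TTCAAA), as examples of members that fell: Top2a at chr11:99024190-99024269 (minus strand), Cdc20 at chr4:118437344-118437423 (minus), Ccnb2 at chr9:70421545-70421624 (minus) and Mki67 at chr7:135716432-135716511 (minus).
Top2a: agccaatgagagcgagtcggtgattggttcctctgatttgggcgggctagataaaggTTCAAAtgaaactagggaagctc
Cdc20: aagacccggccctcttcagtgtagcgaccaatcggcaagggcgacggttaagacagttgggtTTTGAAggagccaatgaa
Ccnb2: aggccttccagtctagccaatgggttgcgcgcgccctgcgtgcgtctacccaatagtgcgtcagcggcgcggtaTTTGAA
Mki67: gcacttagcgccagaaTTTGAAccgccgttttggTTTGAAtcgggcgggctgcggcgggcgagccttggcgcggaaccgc

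Inhibitors of the cell cycle and p53 targets were split, with 7 of 22 higher and 9 lower. Cdkn1a, the cyclin-dependent kinase inhibitor p21, rose from 43.9, 40.1 and 46.6 to 127, 121 and 116 FPKM, and Ccnd1, cyclin D1, from 5.26, 6.13 and 5.66 to 10.2, 9.92 and 11.5. Gas1, a membrane protein of arrested cells, fell from 179.7, 184 and 196 to 85.2, 113 and 116. Their median log2 change of -0.03 turned to 0.02 with quantile normalization.

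Interferon-stimulated genes rose. Of 38 tested, 37 were called higher and 0 lower by limma, with 0 lower also at an unadjusted p under 0.05 and with voom, and the median log2 change was 1.77. Oas2, named above, is one of them. Interferons signal through a transcription factor complex to a shared element in their target genes, which encode antiviral proteins and the machinery of antigen presentation. Irf7, a transcription factor that amplifies the response, had 7.38, 9.56 and 7.55 FPKM on day 4 and 51.5, 47 and 48.2 on day 8. The antiviral genes rose as well. Ifit3, which binds foreign RNA, had 6.35, 7.0 and 7.03 FPKM on day 4 and 57.4, 55.3 and 46.4 on day 8 (log2 change 2.90 ± 0.366). Isg15, a ubiquitin-like modifier, had 25.8, 31.6 and 29.9 FPKM on day 4 and 136, 122 and 121 on day 8. For antigen presentation, B2m, the class I light chain, had 339, 356 and 322 FPKM on day 4 and 1319, 1488 and 1437 on day 8. The class I heavy chain H2-D1 had 83.9, 90.5 and 96.6 FPKM on day 4 and 411, 478 and 492 on day 8 (adjusted p 3.78e-10). The member not called was Cxcl10, a chemokine, with 5.49, 5.18 and 6.52 FPKM on day 4 and 7.46, 7.86 and 10.4 on day 8 (adjusted p 0.316, and 0.0092 with the spread of the 4 WAT control libraries alone).

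Promoters of 30 of these 38 genes were matched in RefSeq, and genes were counted in the same way as for TTTGAA. The letters GAAANNGAAA, the common form of the interferon-stimulated response element, stood on either strand in 60.0% of them and in 3.99% of all genes with a promoter. This motif was chosen after the values were seen. Stretches of 80 bases are shown for the 4 members with the highest change that hold it, all on the plus strand, with the matches (here in the form of the other strand, TTTCNNTTTC) in capitals: Ifit3 at chr19:34583377-34583456, Gbp3 at chr3:142559964-142560043, Gbp2 at chr3:142620574-142620653 and Ifit1 at chr19:34640774-34640853. Gbp2 and Gbp3 are interferon-induced GTPases, and Ifit1 recognises RNA without the host's cap marks.
Ifit3: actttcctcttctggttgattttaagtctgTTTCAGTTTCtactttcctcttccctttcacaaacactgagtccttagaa
Gbp3: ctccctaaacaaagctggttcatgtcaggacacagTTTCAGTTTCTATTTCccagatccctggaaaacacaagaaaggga
Gbp2: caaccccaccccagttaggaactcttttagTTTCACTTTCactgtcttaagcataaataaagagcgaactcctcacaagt
Ifit1: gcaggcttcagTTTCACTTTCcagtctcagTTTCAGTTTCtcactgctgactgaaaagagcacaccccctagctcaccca

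Gbp3 had 5.06, 5.72 and 4.3 FPKM on day 4 and 38, 42.3 and 31.1 on day 8. Gbp2 had 2.93, 2.84 and 3.01 FPKM on day 4 and 24.1, 22.5 and 23.2 on day 8. Ifit1 had 5.92, 6.94 and 7.74 FPKM on day 4 and 35.5, 34.7 and 28.7 on day 8. No day 8 value of these 3 genes reached down to a day 4 value.

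Complement genes, whose products tag and lyse foreign cells, rose with 18 of 20 called higher and 0 lower (median log2 change 1.62). C3, the central component, had 88, 81.5 and 106 FPKM on day 4 and 595, 818 and 696 on day 8 (log2 change 3.03 ± 0.142). C1ra, a protease of the classical pathway, had 22.9, 26.3 and 26.9 FPKM on day 4 and 117, 120.0 and 125 on day 8. Serping1, its inhibitor, had 166, 179 and 198 FPKM on day 4 and 701, 739 and 754 on day 8. C1qa, which starts the classical pathway and is made mostly by macrophages, had 7.38, 7.24 and 9.15 FPKM on day 4 and 17.3, 26.5 and 24 on day 8. Masp1, a protease of the lectin pathway, did not pass the test, with 3.14, 3.02 and 2.26 FPKM on day 4 and 2.71, 2.15 and 1.88 on day 8 (adjusted p 0.068). By limma 2 of the 20 genes had a negative log2 change at an unadjusted p under 0.05, and voom on the reads and limma without day 8 replicate 1 each called 2 lower. C2 read differently in the tables, with 1.39, 1.64 and 4.76 FPKM on day 4 and 10.7, 11.2 and 39.9 on day 8, where replicate 3 lay above replicates 1 and 2 on either day. Macrophage markers were higher on day 8 too, with 10 of 11 tested called higher. C1qa and C1qb are among these markers and also belong to the complement list, so the groups share genes. Csf1r, the macrophage growth factor receptor, had 0.812, 0.878 and 0.857 FPKM on day 4 and 2.72, 3.84 and 3.61 on day 8. Itgam, an integrin of myeloid cells, had 0.665, 0.675 and 0.521 FPKM on day 4 and 2.93, 3.36 and 2.89 on day 8. Ptprc, the pan-leukocyte CD45, was under 1 FPKM in all 6 libraries and was not among the tested genes, with 17, 9 and 7 reads on day 4 and 243, 200 and 58 on day 8, higher in each replicate. The part of macrophages in these results was not tested.

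**Figure D3:**
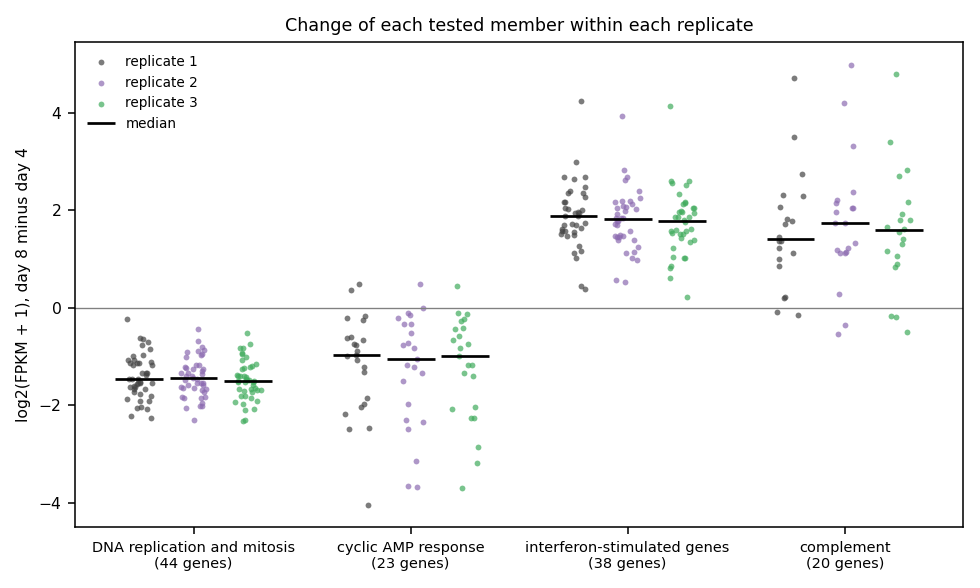
Log2(FPKM + 1) on day 8 minus day 4 for each tested member of 4 gene lists, within replicates 1, 2 and 3 of WAT control cells. Points are genes and black bars the medians of a replicate. The 44 replication and mitosis genes lie below 0 and the 38 interferon-stimulated genes above 0 in each replicate, and the cyclic AMP and complement lists have a few members on the other side.

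Cyclic AMP response genes fell. Of 23 tested, 21 were called lower and 1 higher, with a median log2 change of -1.04, and 2 were higher without day 8 replicate 2. Cyclic AMP activates CREB, which turns on fast transcription factors and, as a brake, the phosphodiesterases that break the messenger down. Fos had 23.8, 20.7 and 22.7 FPKM on day 4 and 3.4, 3.43 and 3.95 on day 8 (log2 change -2.39 ± 0.105). Nr4a3 had 7.34, 7.13 and 6.77 FPKM on day 4 and 1.11, 0.44 and 0.622 on day 8. Among the phosphodiesterases, Pde4d had 19.3, 19 and 15 FPKM on day 4 and 3.99, 2.94 and 2.8 on day 8. Pde4b had 13.9, 13 and 13.1 FPKM on day 4 and 3.16, 2.57 and 2.42 on day 8. Pde4a was the member called higher, with 2.04, 2.24 and 1.91 FPKM on day 4 and 3.25, 3.54 and 2.94 on day 8. Penk and Pde7b, named above, belong to the same list. Rgs2, which dampens G protein signals, had 31.2, 28.1 and 36 FPKM on day 4 and 15.2, 15.3 and 13.7 on day 8.

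Glucocorticoid response genes did not move together: 10 of 23 were called higher and 6 lower. With the spread of the 4 WAT control libraries alone, 7 were called higher and 6 lower. Fkbp5, a co-chaperone of the glucocorticoid receptor, had 78.1, 77.2 and 80.7 FPKM on day 4 and 52.7, 104 and 102 on day 8, so day 8 replicate 1 was below day 4 and replicates 2 and 3 above it. Tsc22d3, the glucocorticoid-induced leucine zipper, had 22.2, 20.6 and 24.6 FPKM on day 4 and 37.4, 96.2 and 93.3 on day 8, and Sgk1, a kinase, fell from 146, 133 and 130.2 to 44.5, 60.2 and 62.7 FPKM. Thyroid hormone response genes gave 13 higher and 6 lower of 22. Dio3, the deiodinase that inactivates T3, had 1.55, 1.67 and 2.43 FPKM on day 4 and 23.8, 19.9 and 21.6 on day 8 (log2 change 3.13 ± 0.105). Hr, a corepressor induced by T3, had 0.594, 0.478 and 0.588 FPKM on day 4 and 5.21, 8.28 and 7.53 on day 8. Gpd2, a mitochondrial glycerophosphate dehydrogenase, had 1.87, 2.0 and 1.76 FPKM on day 4 and 8.87, 15.5 and 12.8 on day 8. The receptor gene Thrb rose from 1.25, 1.25 and 1.23 to 3.16, 3.19 and 3.3 FPKM. Dio2, which makes T3 from its precursor, fell from 1.43, 1.6 and 1.51 to 0.536, 0.257 and 0.114.

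Genes of endoplasmic reticulum and ATF4 stress were called lower in 22 of 28 cases and higher in 1 (median log2 change -0.60), and higher in 3 without day 8 replicate 2 (median -0.40). Atf4, the factor of the integrated stress response, had 278, 256 and 283 FPKM on day 4 and 154, 114 and 132 on day 8. Its target Chac1, which degrades glutathione, had 8.2, 7.71 and 8.79 FPKM on day 4 and 2.8, 1.25 and 2.1 on day 8. Hspa5, the chaperone BiP, had 607, 572 and 601 FPKM on day 4 and 397, 309.7 and 351 on day 8. Psat1, of serine synthesis, had 90.0, 82.9 and 87.9 FPKM on day 4 and 44.9, 44.8 and 44.7 on day 8, with day 8 libraries within 1 FPKM of each other. Atf5 was the member called higher, with 151, 145 and 196 FPKM on day 4 and 217, 207 and 278 on day 8. Sterol synthesis and handling had 6 higher and 17 lower of 31. Sqle, squalene epoxidase, had 24.7, 24 and 25.7 FPKM on day 4 and 12.6, 8.99 and 8.74 on day 8. The handling gene Apoe rose from 329, 281 and 426 to 528, 772 and 768 FPKM.

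Hypoxia-inducible factor targets and glycolysis genes rose, with 24 of 29 called higher and 3 lower (median log2 change 0.93). Ndufa4l2, a hypoxia-induced relative of a respiratory chain subunit, had 13.4, 15.3 and 19.3 FPKM on day 4 and 180.4, 169.9 and 192 on day 8 (log2 change 3.52 ± 0.155). Adm, the vessel-widening peptide adrenomedullin, had 46.4, 45 and 44.5 FPKM on day 4 and 175, 203 and 222 on day 8. Egln3, an oxygen-sensing hydroxylase, had 1.93, 1.61 and 2.02 FPKM on day 4 and 9.58, 10.3 and 10.9 on day 8. Of the glycolytic enzymes, Ldha had 320.3, 303 and 368 FPKM on day 4 and 621, 668 and 664 on day 8. Pgk1 had 162, 161 and 181 FPKM on day 4 and 388, 349 and 359.9 on day 8, log2 changes of 1.05 and 1.19. Hif1a itself fell from 70.4, 71.4 and 71.8 to 51, 31.5 and 37.1 FPKM. Oxygen in the cultures was not a label of the series.

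The insulin-like growth factor axis and imprinted genes had 8 higher and 17 lower of 27. Igf1 had 74.7, 76.5 and 61 FPKM on day 4 and 20.1, 12.3 and 11.2 on day 8 (log2 change -2.20 ± 0.192). Igf2 had 17.1, 18.1 and 18.1 FPKM on day 4 and 3.23, 3.17 and 3.14 on day 8. H19, the imprinted noncoding RNA next to Igf2, had 756, 762 and 979 FPKM on day 4 and 250.5, 125 and 163 on day 8. Plagl1, a zinc finger regulator of imprinted genes, had 76.7, 78.6 and 70.0 FPKM on day 4 and 22.2, 13 and 12.6 on day 8. Meg3, expressed from the other parental copy than its neighbour Dlk1, rose from 34.8, 37.7 and 35.9 to 65.1, 45.6 and 48.3. Among the binding proteins, Igfbp6 rose from 194, 188 and 262 to 532, 689.6 and 758 and Igfbp3 from 187, 191 and 202 to 361, 573 and 624, whereas Igfbp4 fell from 641, 679 and 831 to 335, 215 and 275. Ghr, the growth hormone receptor, had 34.2, 33.5 and 31.2 FPKM on day 4 and 105, 97 and 90.3 on day 8.

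Extracellular matrix genes moved in both directions. Collagens gave 9 higher and 9 lower of 23, with 3 higher when the spread was taken from the 4 WAT control libraries and 5 without day 4 replicate 1 or without day 8 replicate 1. Of the type IV chains of basement membranes, Col4a1 and Col4a2 fell. Col4a1 had 2393, 2490.0 and 2257 FPKM on day 4 and 825, 1108 and 1124 on day 8. Col4a2 had 1319, 1362 and 1275 FPKM on day 4 and 565, 783 and 791 on day 8. Col4a5, a chain of another basement membrane network, rose from 2.36, 2.14 and 1.78 to 14.2, 13.9 and 12.7. The remaining chains Col4a3, Col4a4 and Col4a6 had too few reads to be tested, between 7 and 38 on day 4 and between 13 and 87 on day 8, and each had more reads on day 8 in every replicate. The fibrillar chain Col3a1 had 6089, 6339 and 6585 FPKM on day 4 and 6601, 4432 and 5146 on day 8, overlapping groups that did not pass the test (adjusted p 0.261). Another fibrillar chain, Col1a1, was called higher by limma (log2 change 0.30, adjusted p 0.0238). It had 2245, 2288 and 2578 FPKM on day 4 and 3223, 2431 and 3217 on day 8, also with overlapping values. Other matrix genes were called higher for 17 of 40 and lower for 12. Vcan, a large proteoglycan of provisional matrix, had 104, 115 and 89.4 FPKM on day 4 and 32.9, 30.8 and 28.5 on day 8. Nid2, which links laminin to collagen, had 234, 255 and 261 FPKM on day 4 and 79.4, 58.5 and 62.4 on day 8, whereas Fbln2, of elastic fibres, rose from 341, 355 and 301 to 829, 701 and 789.

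Matrix proteases and their inhibitors gave 12 higher and 14 lower of 30, and their median log2 change of 0.18 turned to -0.03 without day 8 replicate 1. Timp4, an inhibitor made in fat, had 0.702, 0.362 and 0.862 FPKM on day 4 and 10.1, 15.3 and 16.4 on day 8. Mmp23 had 6.32, 6.5 and 7.1 FPKM on day 4 and 53.9, 44.3 and 48.2 on day 8. Adam12, a protease of precursors, fell from 113, 119.6 and 90.9 to 35.8, 26.7 and 25.3. Mmp12, the macrophage elastase, had 0.122, 0.0521 and 0.0682 FPKM on day 4 and 9.26, 2.88 and 3.83 on day 8, highest in day 8 replicate 1, and macrophage markers, given above, were higher on day 8 as well. Smooth muscle and myofibroblast genes were called higher for 14 of 22 and lower for 4. Acta2, smooth muscle actin, had 97.5, 80.4 and 83 FPKM on day 4 and 233, 162 and 182 on day 8. Myl9, a myosin light chain, had 11.2, 9.47 and 12.3 FPKM on day 4 and 61, 42.5 and 51.5 on day 8. Cyr61, a target of YAP, fell from 474, 442 and 431 to 201, 131 and 158. Smooth muscle or pericyte markers summed to 112 to 127 FPKM on day 4 and 190 to 264 on day 8, and Acta2 gave the most to these sums. Acta2, Myh11, Cnn1, Cspg4 and Notch3 were the 5 of 9 called higher, and Des, Kcnj8 and Abcc9 the 3 called lower. Acta2, Myh11, Cnn1 and Des also belong to the contractile list. The part of these cell types in the contractile result was not tested.

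Markers of adipose progenitors were called higher for 17 of 25 and lower for 5. Ly6a, or Sca-1, had 88.9, 113 and 110.5 FPKM on day 4 and 849, 1039 and 911 on day 8 (log2 change 3.21 ± 0.16). Clec3b had 34.2, 29.4 and 40.5 FPKM on day 4 and 135, 156 and 167 on day 8. Pi16, of the fibroblasts that surround vessels, had 2.23, 2.13 and 2.12 FPKM on day 4 and 9.27, 5.34 and 7.41 on day 8. Thy1 had 67.2, 69.9 and 73.9 FPKM on day 4 and 209, 150.1 and 163 on day 8. Dlk1 and Cd24a, named above, were among the 5 that fell. Of 7 fibroblast markers 4 were called higher, and together they summed to 9529 to 10380 FPKM on day 4 and 9345 to 12030 on day 8, overlapping sums to which Col3a1 gave the most. Endothelial markers, which Ly6c1 and Ly6a can accompany, had 6 of 10 tested called higher and sums of 31.7 to 39.6 FPKM on day 4 and 39.4 to 43.9 on day 8, and their part in the rise of those genes was not tested.

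Stromal chemokines and cytokines gave 7 higher and 10 lower of 27. Their median log2 change of -0.09 turned to 0.15 without day 8 replicate 2. Cxcl1, a relative of Cxcl5, had 10.7, 10.2 and 11.7 FPKM on day 4 and 1.86, 0.784 and 0.57 on day 8. Ccl11, which draws eosinophils, had 60.4, 58.7 and 60.6 FPKM on day 4 and 27, 15.6 and 17.8 on day 8. Il1rl1, the receptor of interleukin 33, fell from 6.21, 6.6 and 5.64 to 0.963, 0.413 and 0.603 FPKM. Csf1, the macrophage growth factor, rose from 99.6, 105 and 89 to 195, 187 and 174, and Ccl8, a monocyte chemokine, from 5.19, 4.01 and 4.66 to 19.1, 11 and 16.4.

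Circular RNAs are RNAs closed into a ring by back-splicing. The 20 genes counted here are those that the study names, a small part of all the genes from which it reports circular RNAs. It chose them on cultures of this kind and took its mRNA levels from this series, so their direction is no independent evidence. Its circular RNAs were compared from the start of differentiation to day 8, whereas the comparison here is of day 8 with day 4. The values here are of the whole gene and count no circular junctions. Of the 20, 14 were called lower and 3 higher (median log2 change -0.39). Pde4d and Bmper fell, Bmper from 127, 126 and 124 to 49.9, 42.8 and 46.5 FPKM. Cacna1d, a calcium channel subunit, had 3.14, 3.55 and 2.8 FPKM on day 4 and 0.964, 0.637 and 0.896 on day 8. Selenbp1, a selenium-binding protein, rose, with 13.2, 11.8 and 16.6 FPKM on day 4 and 49.4, 76.7 and 67.7 on day 8. Acss3, a mitochondrial acyl-CoA synthetase, rose as well, with 19.3, 18.3 and 17.2 FPKM on day 4 and 33.7, 43.7 and 32.9 on day 8.

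Brown fat cultures of the same study were used to see where the white maturation differed. They came from interscapular brown adipose tissue (BAT) and had the same media and days, with 6 libraries. The change in WAT less the change in BAT was tested for each gene, and 39.9% of the 14095 genes differed at an adjusted p under 0.05. Among the 24 named genes, 18 differed, but these were chosen for a large change in WAT. Reg1 had the widest gap of the 24, with a change of 3.86 in WAT and -0.65 in BAT (difference 4.51 ± 0.353 SE, adjusted p 5.51e-06). Egr1 had a change of -2.61 in WAT and 1.03 in BAT (difference -3.65 ± 0.321, adjusted p 1.16e-05). Ly6c1 and Oas2 rose less in BAT, by 1.97 and 1.50. Lep and Sncg rose more there, by 5.31 and 5.35. Col27a1 changed by -2.88 and -2.82, a difference of -0.06 ± 0.165 that did not pass the test (adjusted p 0.815).

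**Figure D4:**
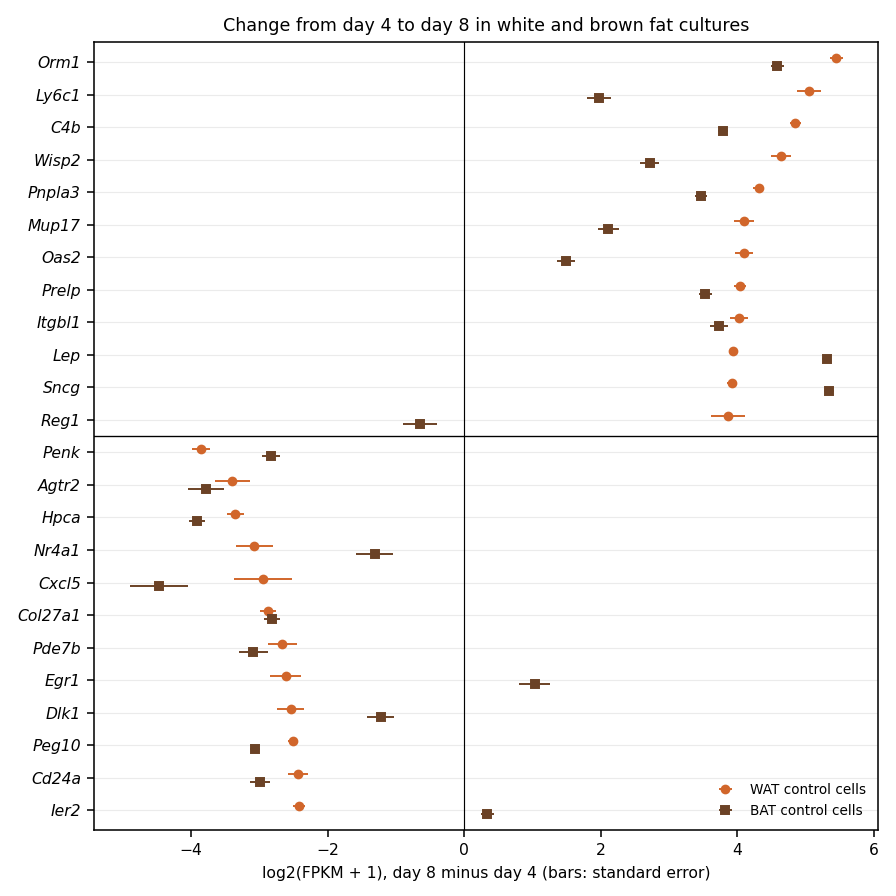
Log2(FPKM + 1) on day 8 minus day 4 for the 24 named genes in WAT (orange circles) and BAT (brown squares) control cells, replicates 1 and 2, with bars for the standard error of the fit. Reg1, Egr1 and Ier2 lie on opposite sides of 0 in the depots, and Col27a1 has nearly the same change in each.

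Within the first table, day 8 replicate 1 lay apart for some genes. Among genes with a mean day 8 level of at least 5 FPKM, 9 were at least 2-fold above and 19 at least 2-fold below both replicates 2 and 3, measured on log2(FPKM + 1). The corresponding counts for day 8 replicate 2 were 2 and 0, and those for day 4 replicates 1 and 2 were 1 and 0 and 3 and 0. Replicate 3, from the separate table, stood apart for more genes, with 43 above and 204 below on day 8 and 46 above and 233 below on day 4. Several genes were low in day 8 replicate 1. Cxcl13, a B cell chemokine, had 13.8, 52.9 and 50.3 FPKM on day 8. Txnip, a glucose-induced inhibitor of thioredoxin, had 72.6, 247 and 298. Agt, angiotensinogen, had 145, 438 and 414, and Galntl2, a glycosyltransferase, 2.14, 8.79 and 7.25. On day 4, Txnip stood at 85.6, 80.4 and 100.3 FPKM and Agt at 120.4, 104 and 142, close to their day 8 values in replicate 1. Arrdc4, which like Txnip is an arrestin family gene known to respond to glucose, had 10.2, 9.82 and 9.73 FPKM on day 4 and 2.85, 7.86 and 7.25 on day 8. Gsn, the actin-severing protein gelsolin, had 1885, 1686 and 2209 FPKM on day 4 and 1525, 3622 and 3536 on day 8, and Tsc22d3, given above with the glucocorticoid genes, belonged to the same 19 genes. The highest gaps were those of Gm12248 (14.6, 5.7 and 3.62), Abi3bp, a matrix protein (13.3, 5.2 and 4.48), Ptx3, a long pentraxin of inflammation (136, 58.2 and 58.8), and Mir199a-1, a microRNA gene that is at 0 in replicate 3 of either day (12.6, 4.98 and 0). These libraries carry the same label, and what set replicate 1 apart was not tested.

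**Figure D5:**
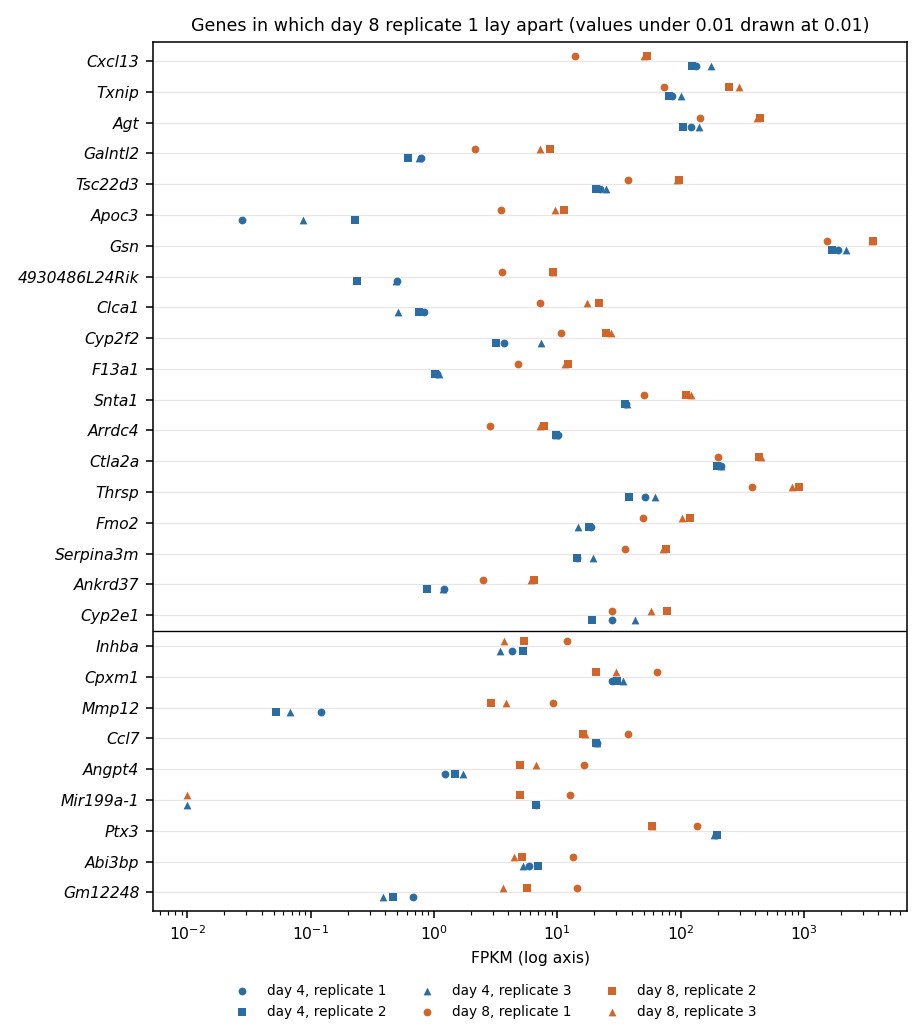
FPKM (log axis) of the 28 genes in which day 8 replicate 1 (orange circles) was at least 2-fold below (19 genes, above the line) or above (9 genes, below the line) day 8 replicates 2 and 3. Blue symbols are day 4. For Cxcl13, Txnip, Gsn, Arrdc4 and Ptx3 the orange circle falls below the day 4 values, and for Ctla2a and Cyp2e1 among them.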

How the data were processed

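The authors deposited FPKM values per gene in 2 separately made tables, with replicates 1 and 2 in the first (16 libraries) and replicate 3 in the second (8 libraries). The submitters' processing notes name FastQC 0.11.9, HISAT2 2.2.0, HTSeq 0.11 and the mm9 build. All 37310 gene identifiers matched GENCODE vM1 on NCBIM37. FPKM multiplied by gene length gave whole reads for 100% of the values (tolerance 0.01), which gave the depths. Genes with at least 1 FPKM in at least 2 of the 16 libraries were tested (14095) on log2(FPKM + 1), 1 mean per group over 8 groups, in limma 3.58.1 (eBayes with a trend, R 4.3.3), two-sided, with Benjamini-Hochberg adjustment over all tested genes (8 residual degrees of freedom, 11.4 with the prior). Calls were made at an adjusted p below 0.05. Folds compare means of replicates 1 and 2. Changes on this scale understate those of genes with low values.

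Named genes were called, had a mean of at least 5 FPKM in the higher group and changed at least 2-fold the same way within each of 3 replicates; the 12 highest and 12 lowest were taken. Values of a few list members are not reported here. List members named besides these were picked after their values were seen. The groups, the 38 lists and the rules were chosen with earlier results of these data known. Of 994 list entries, 3 were not matched. Same-numbered libraries of the first table did not deviate together between days (r = -0.07 over 14095 genes); with replicate 3 added, the correlations of the 3 pairs were 0.68, 0.70 and 0.92, where the tables differ. The procedure was also run on simulated reads, which gave every gene and group the same dispersion. That run does not cover the wider spread of WAT control day 8. Alternatives covered the pseudocount, the filter, scaling, weights, a fit on reads, the pairing and leaving out each library.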

Additional observations from a re-analysis of the deposited data

Results flagged for a closer look

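For 18 of the 24 named genes the change from day 4 to day 8 differed between WAT and BAT control cells by the test of the difference itself (limma, adjusted over 14095 genes, of which 39.9% differed), and replicates 1 and 2 of each depot entered the test. Differences below are WAT less BAT on the log2(FPKM + 1) scale. Reg1 (4.51) rose in WAT and had a change of -0.65 in BAT. The rise was larger in WAT for Ly6c1 (3.08), Oas2 (2.60), Mup17 (1.99), Wisp2 (1.92), C4b (1.06), Orm1 (0.86), Pnpla3 (0.84) and Prelp (0.51). It was smaller in WAT for Lep (-1.37) and Sncg (-1.42), both of which rose in either depot. Among genes that fell in WAT, the fall was larger than in BAT for Penk (-1.02), Nr4a1 (-1.76) and Dlk1 (-1.32). Egr1 (-3.65) and Ier2 (-2.76) fell in WAT while their BAT changes were 1.03 and 0.34. Hpca (0.56) and Peg10 (0.56) fell less in WAT than in BAT. Causes were not tested.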

How the results depend on the processing

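Under each alternative run, 0 genes were called in the opposite direction, and all 24 named genes kept their direction and their call. The named genes were chosen for a change of at least 2-fold in each of 3 replicates, so their stability was largely fixed by that choice. In all, 3907 genes were called higher, 4684 lower and 1443 with a change of at least 2-fold, and 5630 differed between depots. The 2-fold count rose to 2369 with a pseudocount of 0.1 and to 2443 with voom on recovered reads, neither of which adds as much to low values as a pseudocount of 1. With a replicate block in the 16 libraries the counts were 3878, 4642, 1446 and 5486; in the 6 WAT control libraries of both tables with a replicate block, a paired fit, they were 3417, 4092 and 1293, and the block changed the call of 0 of the 24 named genes. With the spread of the 4 WAT control libraries alone they were 3077, 3623 and 1431. With weights by group, lowest for WAT control day 8 (0.416), 3333 genes were called higher and 3965 lower. Leaving out 1 library at a time gave 3450 to 3703 higher, 4062 to 4423 lower, 1451 to 1570 of at least 2-fold and 4699 to 5763 between depots. Calls higher made up 45.5% of all calls, 49.4% with median-ratio scaling and 41.4% with a filter at 5 FPKM. With 2 libraries per group in the tests, and the libraries of replicate 3 at no more than 16573516 reads, changes of genes near 1 FPKM are known least well.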

Other observations

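Counts for 5 lists of signalling and housekeeping genes follow, to be read beside the 27.7% of all genes called higher and the 33.2% called lower. Of 47 tested TGF-beta and BMP pathway genes, 23 were called lower and 10 higher (median log2 change -0.15). The receptor Tgfbr1 fell from 50.7, 50.7 and 39.9 to 19.1, 14.6 and 14.9 FPKM, the ligand Gdf10 from 190.1, 195 and 210.0 to 78.8, 64.7 and 74.9, and the antagonist Fst (follistatin) from 152, 138 and 124 to 61.7, 64 and 65.7, while Ltbp2, which anchors latent TGF-beta in the matrix, rose from 4.72, 5.56 and 3.84 to 23.6, 21.9 and 22.5. In the Wnt pathway 13 of 32 were lower and 6 higher, and 10 were higher without day 8 replicate 2. The receptor Fzd1 had 99, 105 and 92.8 FPKM on day 4 and 46.3, 31.2 and 31.7 on day 8 and the secreted binder Sfrp2 had 185, 194 and 234 FPKM on day 4 and 97.6, 65.9 and 99.8 on day 8.

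Clock genes gave 7 higher and 4 lower of 18, with Dbp, a clock output factor, at 1.38, 1.2 and 1.74 FPKM on day 4 and 5.42, 5.39 and 7.35 on day 8 and Bhlhe41, a repressor, at 7.43, 6.6 and 6.44 FPKM on day 4 and 1.81, 1.12 and 1.38 on day 8. Antioxidant genes and metallothioneins gave 15 higher and 5 lower of 35, and 8 lower without day 8 replicate 2. Gpx3, a secreted glutathione peroxidase, rose from 615, 635 and 744 to 1254, 1471 and 1475 FPKM and Ephx1, an epoxide hydrolase, from 14.5, 13.2 and 14.1 to 61.7, 68.8 and 67.7, whereas Gclc, the first enzyme of glutathione synthesis, fell from 17.1, 17.6 and 15.6 to 8.82, 11.1 and 8.6. Caveolae and carbonic anhydrase genes gave 8 higher and 2 lower of 14, and 5 higher with the spread of the 4 WAT control libraries alone. Car2 fell from 6.79, 6.06 and 8.08 to 0.989, 1.34 and 0.911 FPKM, and mitochondrial Car5b rose from 26.4, 24.1 and 26.4 to 46, 59.1 and 51.2.

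Day 8 replicate 3 held 6 genes at 10 FPKM or more that were under 1 FPKM in the other 5 libraries, with Reg3a at 531 FPKM and Ccdc42 at 391.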
